A study of Mus musculus with 84 samples.

Results

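Liver gene expression was compared between mice fed parathion (PT) at 20 or 40 ppm and control mice in a TempO-Seq experiment. The dosed mice were pooled, so that 14 mice (7 at 20 ppm and 7 at 40 ppm) were set against 7 controls, and they are 14 of the 84 mice in the series. The mice were male B6C3F1 hybrids without any genetic modification, 8 weeks old at the start, and they ate AIN-93G diet for 7 days. Control diet held no organophosphate pesticide (OPP), and the PT diets differed from it only by the added PT. The paper states that body weight and relative liver weight fell significantly with PT at 40 and 80 ppm. The part of these weight changes in the results was not tested. The same series holds PT at 80 ppm and further doses of the OPPs fenthion and methidathion; their mice entered the model but are not described here, apart from a few PT 80 ppm values set beside the lower doses. The experiment was run in blocks, and every group took 2 mice from block 1, 3 from block 3 and 2 from block 4. RNA came from pieces of several liver lobes mixed together. It was isolated at a contract laboratory (EA) for all 14 dosed mice and 5 controls, and at the U.S. EPA for the other 2 controls, of which 1 was in block 3 and 1 in block 4. The question was which genes shifted at the low and middle dose pooled, and whether the 2 doses differed.

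PT is an insecticide whose sulfur is exchanged for oxygen by cytochrome P450 enzymes of the liver, which gives paraoxon, an inhibitor of acetylcholinesterase. Carboxylesterases bind paraoxon, and paraoxonases and related hydrolases can break it down. Many foreign compounds also bind or activate the nuclear receptors CAR and PXR in hepatocytes, which switch on Cyp2b, Cyp2c and Cyp3a genes, conjugating enzymes and transporters. TempO-Seq counts ligated pairs of detector oligos per gene, so a level of one gene cannot be compared with that of another without knowing how well each pair works. All levels are given in CPM, the count scaled to the size of the library after TMM normalization, and are compared only between mice.

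Total counts in the 21 mice lay between 8621611 and 13460623, and 3 counts corresponded to between 0.223 and 0.348 CPM. The median total was 11724762 in controls, 11391897 at 20 ppm and 12275477 at 40 ppm. The 2 controls isolated at the EPA had 15019 and 15251 genes with a count, while the other 19 mice had between 13847 and 14462. Each mouse correlated with the mean of the other 6 of its group at r between 0.973 and 0.994 on the log2(CPM + 1) scale over the tested genes. Control replicate 1 of block 1 had the lowest value, and the next lowest was 0.985 (PT 20 ppm replicate 2). The 6 hepatocyte markers were detected in all mice, with a summed level between 17692 and 37603 CPM over the 21 mice.

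No gene passed the test when both doses were pooled. Of the 10415 genes with a median count above 8, 0 (0%) had an adjusted p under 0.05 by edgeR's quasi-likelihood test with Benjamini-Hochberg adjustment, and the smallest adjusted p was 0.256. DESeq2 and limma also called 0 genes. At an unadjusted p under 0.05 there were 846 genes (8.12%), of which 420 (4.03%) were higher and 426 (4.09%) lower in dosed mice; DESeq2 gave 858 and limma on log2(CPM + 1) gave 855. By limma 624 of these were higher and 231 lower, a balance that differed from edgeR's. For limma, CPM was scaled to total counts without TMM. Its median log2 fold change over all genes was 0.025, against 0.005 by edgeR. The part of the scaling in the balance was not tested. The lowest bin of the p-value histogram held more genes than the others.

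**Figure D1:**
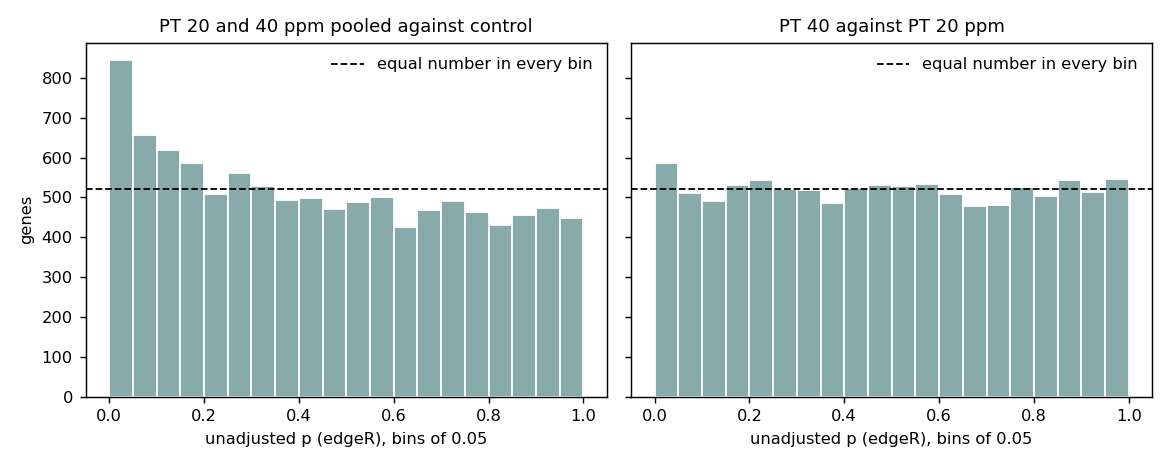
Number of genes (y axis) in 20 bins of the unadjusted edgeR p-value (x axis) for the pooled comparison (left) and for PT 40 against PT 20 ppm (right); the dashed line marks an equal number in every bin. The lowest bin holds 846 genes on the left and 587 on the right.

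The estimates were narrow enough to bound most genes. The 95% interval of the pooled log2 fold change reached a median of 0.26 to either side of the estimate, or 1.20-fold, and for 10039 genes (96.4%) it lay wholly within 2-fold in either direction. The estimate itself reached 2-fold for 14 genes, 7 higher and 7 lower. The interquartile range of all estimates ran from -0.09 to 0.10. On counts simulated from these mice, the same test recovered 85 of 100 genes changed 2-fold at both doses and 100 of 100 changed 4-fold, with 9 false calls. The simulated counts held no effect of block, RNA isolator or the state of a mouse, and many genes were truly changed. The recovery therefore need not hold for the real mice. Each sample is 1 mouse, so p-values measure the spread between these mice. The study housed several mice per cage and assigned whole cages to the diets. Cage was not in the model, so mice that shared a cage were treated as independent.

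The 12 genes with the smallest p among those higher in dosed mice were Tifab, Magoh, Cyp2c29, Cyp2c50, Enox2, Hnrnph1, Clk1, Ssbp4, Swt1, Poglut1, Ndufv2 and Tnfrsf26. They were ranked by the pooled comparison, so their estimates are descriptions. Their log2 fold changes lay between 0.26 and 1.19, and their adjusted p between 0.256 and 0.490 (edgeR, Benjamini-Hochberg). Tifab, which encodes a relative of the NF-κB signalling adaptor TIFA, stood first; the gene lies on chromosome 13 from 56321514 to 56326814 (GRCm39). Tifab had 0.252 CPM in the lowest, 0.442 in the median and 0.668 in the highest control mouse. At 20 ppm the lowest, median and highest were 0.848, 1.25 and 1.76 CPM, and at 40 ppm they were 0.716, 0.779 and 1.15 CPM. All 14 dosed mice thus lay above all controls in CPM. Tifab was a low gene, with 3 to 8 counts in controls, 8 to 22 at 20 ppm and 8 to 15 at 40 ppm, so that the counts themselves met at 8. The pooled log2 fold change was 1.07 ± 0.24 (SE), with an adjusted p of 0.256. Tifab was the only gene of the 10415 tested (0.0096%) in which every dosed mouse exceeded every control. In PT 80 ppm mice its level ran from 0.245 to 1.20 CPM, across the range of controls and of both lower doses.

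A pair of P450 genes of the Cyp2c family on chromosome 19, whose enzymes oxidize drugs and fatty acids, were among the 12. Cyp2c29 had 582 CPM in the lowest, 1013 in the median and 1558 in the highest control. At 20 ppm these values were 680, 1264 and 1920 CPM, and at 40 ppm they were 1178, 2080 and 2686 CPM. The groups overlapped, and 8 of 14 dosed mice exceeded the highest control. Its pooled log2 fold change was 0.71 ± 0.18 (SE; adjusted p = 0.490, edgeR). Cyp2c50 had 13.5, 48.3 and 71.7 CPM in the lowest, median and highest control, 46.7, 75 and 138 at 20 ppm, and 89.1, 101 and 136 at 40 ppm. All 7 mice at 40 ppm were above the highest control, while the mice at 20 ppm overlapped the controls. The pooled log2 fold change of Cyp2c50 was 0.89 ± 0.24 (SE), and 0.70 to 1.02 when any 1 mouse was left out. Within blocks it was 1.35 in block 1, 0.90 in block 3 and 0.29 in block 4; for Cyp2c29 the block values were 0.92, 0.96 and 0.03. Cyp2c genes are close relatives, and the estimation of counts could split reads among them, so the single genes are uncertain.

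The 12 also held Magoh, Hnrnph1, Clk1 and Ndufv2. Magoh, a core protein of the exon junction complex, had 0.233, 0.999 and 1.23 CPM in the lowest, median and highest control, 1.12, 1.88 and 3.13 at 20 ppm and 0.520, 1.34 and 1.99 at 40 ppm. Hnrnph1, a splicing regulator, had medians of 128 CPM in controls, 164 at 20 ppm and 134 at 40 ppm, and 1 dosed mouse exceeded the highest control. Clk1, a kinase of splicing factors, had medians of 51.1, 60.4 and 63.2 CPM. The EPA-isolated controls had 182 and 167 CPM of Hnrnph1, and the EA controls had 101 to 129. For Clk1 these values were 62.9 and 61.2 CPM, and 30.2 to 53.4. The estimates of these genes thus lean on the correction for RNA isolator. The mice of the 3 groups overlapped for each of these genes. Ndufv2, a subunit of respiratory complex I, had 21, 28.9 and 37.3 CPM in the lowest, median and highest control, and no dosed mouse was below 33.9 CPM. Its pooled log2 fold change was 0.27 ± 0.08 (SE), and 8 of 14 dosed mice exceeded the highest control.

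**Figure D2:**
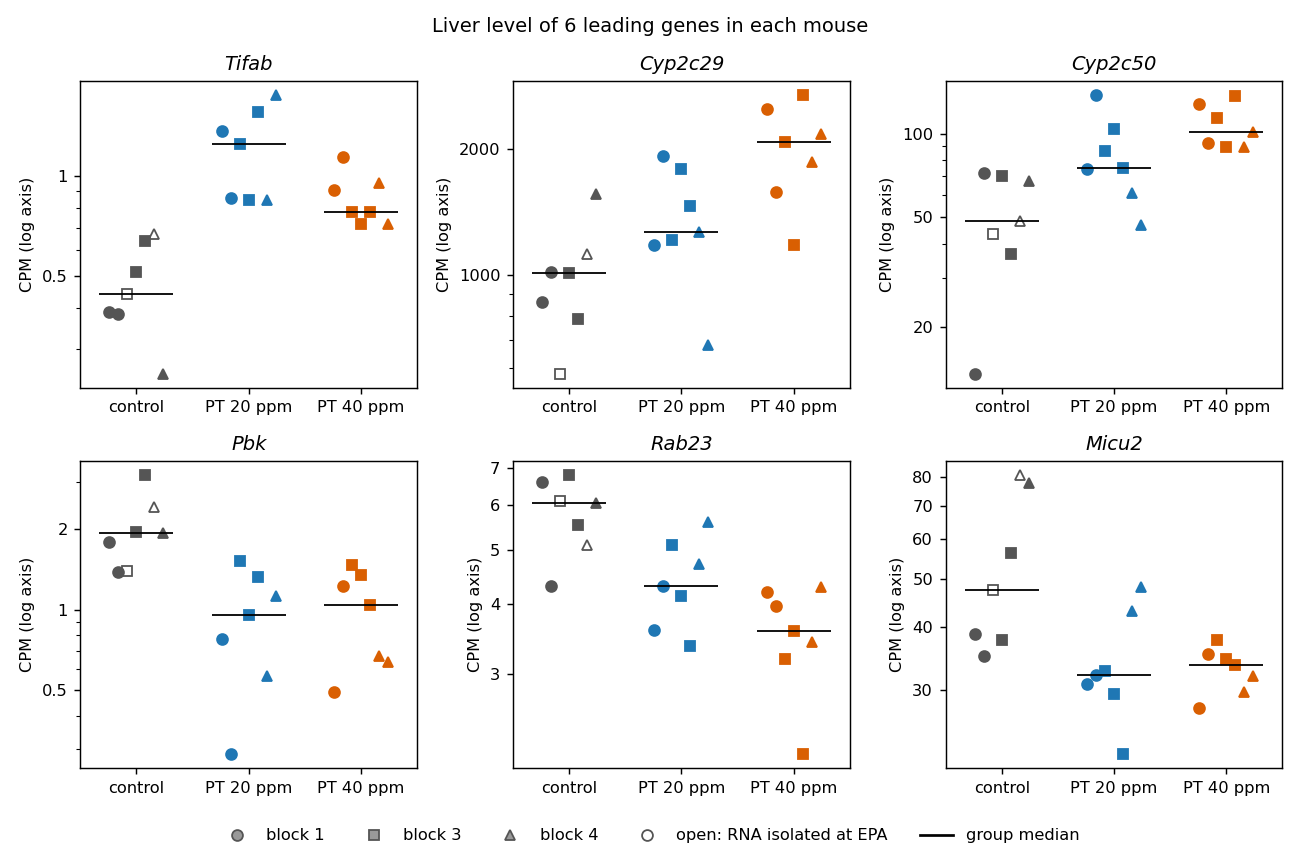
CPM on a log axis (y axis) of 6 leading genes in each mouse, by group (x axis); circles, squares and triangles are blocks 1, 3 and 4, open symbols are the 2 controls isolated at the EPA, and lines are group medians. For Tifab the controls end at 0.668 CPM and the dosed mice begin at 0.716 CPM; for the other 5 genes dosed and control mice overlap or touch, Pbk being separate in 12 of 14 mice.

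Among the 12 genes with the smallest p of those lower in dosed mice were Micu2, Taf11, Rab23, Ppib, Snn, Pbk, Fnip1, Ptov1, Mkrn1, Commd8 and Wdr18, each with an adjusted p of 0.490 (edgeR, Benjamini-Hochberg). Pbk, a kinase of dividing cells, had 1.38, 1.94 and 3.19 CPM in the lowest, median and highest control, 0.287, 0.955 and 1.52 at 20 ppm and 0.490, 1.04 and 1.47 at 40 ppm. For Pbk 12 of 14 dosed mice lay below the lowest control, and its pooled log2 fold change was -1.07 ± 0.30 (SE). Its block values were -1.24, -0.88 and -1.17 in blocks 1, 3 and 4.

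Rab23, a small GTPase of hedgehog signalling, had 4.30, 6.06 and 6.79 CPM in the lowest, median and highest control, 3.37, 4.30 and 5.61 at 20 ppm and 2.16, 3.58 and 4.30 at 40 ppm. Of the 14 dosed mice, 10 were below the lowest control. Micu2, a regulator of the mitochondrial calcium uniporter, was likewise below the lowest control in 10 of 14 dosed mice, with medians of 47.4 CPM in controls, 32.2 at 20 ppm and 33.7 at 40 ppm. Ppib, the cyclophilin of the endoplasmic reticulum, had medians of 366, 328 and 289 CPM, and 7 of 14 dosed mice were below the lowest control. One gene outside this list, Rttn, which encodes a centriole protein, had every dosed mouse below every control (0.0096% of tested genes). It was picked for that separation, after its values were seen. Rttn had 1.24 to 1.91 CPM in controls, 0.772 to 1.13 at 20 ppm and 0.667 to 1.22 at 40 ppm, from 7 to 26 counts per mouse, and its adjusted p was 0.532.

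Against control, the single doses gave 1 called gene. At 20 ppm Tifab rose, with a log2 fold change of 1.32 ± 0.26 (SE) and an adjusted p of 0.0291 (edgeR, Benjamini-Hochberg); it is 1 of 10415 genes (0.0096%), and 616 (5.91%) had an unadjusted p under 0.05, of which 328 (3.15%) were higher and 288 (2.77%) lower. This call was lost, with adjusted p of 0.0507 to 0.263, when any of 9 single mice was left out: control replicates 1, 2, 3, 4 or 7, or PT 20 ppm replicates 1, 3, 5 or 7. DESeq2 called 0 genes at 20 ppm and gave Tifab an adjusted p of 0.0899, while limma called Tifab alone. At 40 ppm edgeR called 0 genes (0%), with 886 (8.51%) at an unadjusted p under 0.05, of which 423 (4.06%) were higher and 463 (4.45%) lower; by limma 698 were higher and 259 lower. The smallest adjusted p was that of Cyp2c29, 0.086, with a log2 fold change of 0.99 ± 0.21 (SE); DESeq2 called this gene (adjusted p = 0.0172) and limma called none. Without control replicate 7 the edgeR adjusted p of Cyp2c29 was 0.00586, and without PT 40 ppm replicate 4 it was 0.0125. These were the only 2 calls when each of the 14 control and 40 ppm mice was left out in turn. The adjusted p ran up to 0.411, without PT 40 ppm replicate 5, and it was 0.288 with EA mice only. Without control replicate 1, edgeR called Ugt1a1 at 40 ppm (adjusted p = 0.0315). This was 1 of the same 14 leave-outs, and the adjusted p of Ugt1a1 ran up to 0.625 in the others. At 80 ppm Cyp2c29 ran from 1563 to 3506 CPM and Ugt1a1 from 1593 to 3162 CPM.

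The doses were then compared with each other directly, in a contrast that uses no control mouse. Of the 10415 genes, 0 (0%) differed between 40 and 20 ppm at an adjusted p under 0.05 by edgeR, and DESeq2 and limma also called 0. At an unadjusted p under 0.05 there were 587 genes (5.64%), 244 (2.34%) higher and 343 (3.29%) lower at 40 ppm, against 601 by DESeq2 and 567 by limma; limma turned the balance, with 331 higher and 236 lower. The lowest bin of the p-value histogram was close to the others. The 95% interval of the difference reached a median of 0.29 on the log2 scale to either side, or 1.23-fold, and for 9837 genes (94.5%) the interval lay within 2-fold. The estimated difference itself reached 2-fold for 50 genes, 11 higher and 39 lower at 40 ppm. For 21 of the 24 leading genes the interval of the difference included 0. The 24 differences ran from -0.50 to 0.57 on the log2 scale, and their intervals from -1.07 to 0.97. Differences of up to about 2-fold between the doses thus remain possible for single genes among these 24. The exceptions were Tifab and Hnrnph1, whose estimates were larger at 20 ppm, and Cyp2c29, whose estimate was larger at 40 ppm. Their log2 differences were -0.50 (95% interval -0.96 to -0.05), -0.20 (-0.36 to -0.04) and 0.57 (0.17 to 0.97), each with an adjusted p of 0.779 or more by edgeR.

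**Figure D3:**
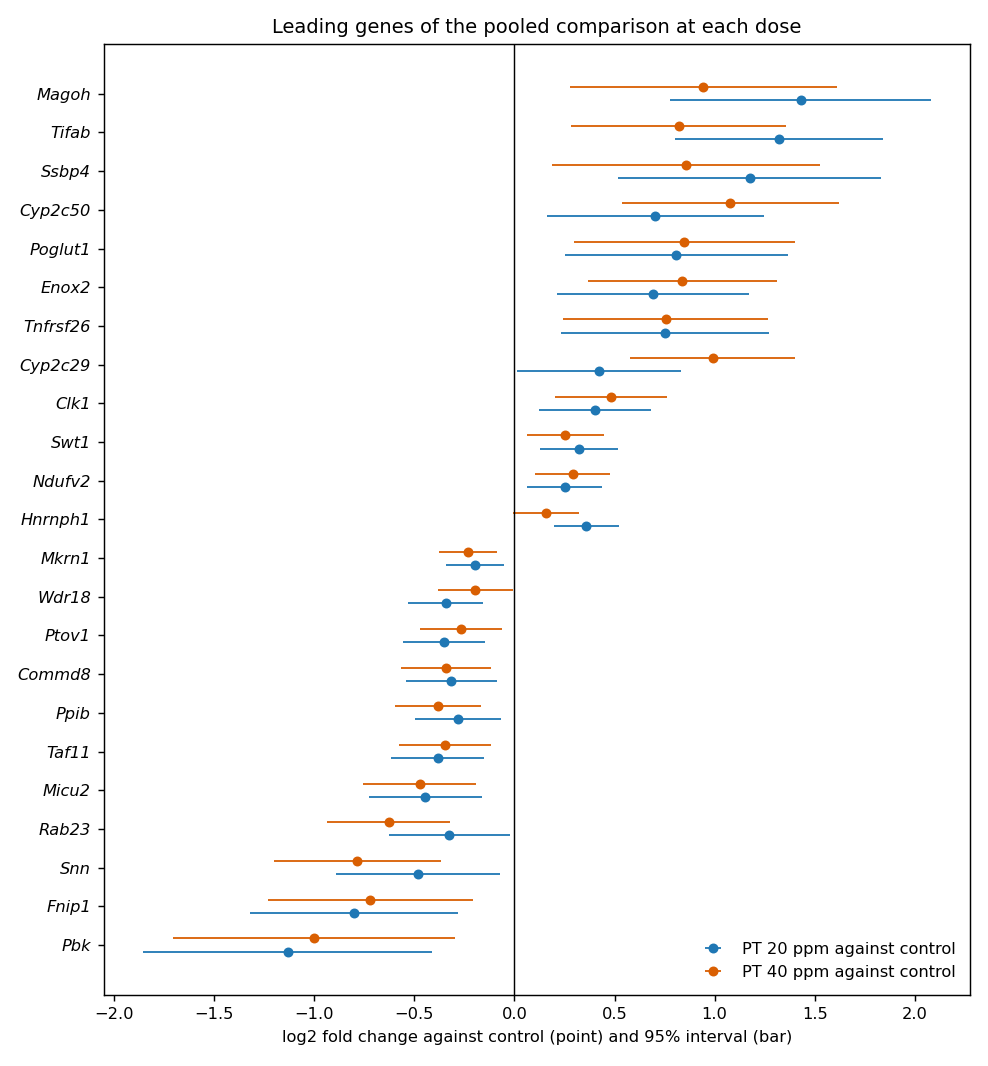
Log2 fold change against control (x axis) with its 95% interval (bars) at 20 ppm and at 40 ppm for the leading genes of the pooled comparison named in the text (y axis), which were chosen for that comparison; both doses share the 7 controls. Magoh and Tifab have the larger estimate at 20 ppm, Cyp2c29 and Rab23 at 40 ppm, and the intervals of the 2 doses overlap for every gene shown.

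The genes with the smallest p between the doses included several that were low or varied widely between mice. Saa4, a constitutive serum amyloid A protein, had 1.20, 2.24 and 3.25 CPM in the lowest, median and highest mouse at 20 ppm and 0.0952, 0.952 and 1.30 at 40 ppm, with 0.673 to 3.24 CPM in controls. Its log2 difference was -1.58 ± 0.36 (SE; adjusted p = 0.304, edgeR), and only 1 mouse at 20 ppm, with 1.20 CPM, lay within the range of the mice at 40 ppm. The gene model Gm19426 had 0.361 to 0.861 CPM at 20 ppm and 0.764 to 1.99 at 40 ppm, with a log2 difference of 1.22 ± 0.29 (SE; adjusted p = 0.304, edgeR). Ccl2, a monocyte-attracting chemokine, had medians of 10.6 CPM at 20 ppm and 2.68 at 40 ppm, but reached 88.0 CPM in 1 mouse at 20 ppm and 62 CPM in 1 control. Ugt1a1, the bilirubin-conjugating enzyme, had 930 to 1617 CPM at 20 ppm and 1284 to 1709 at 40 ppm, with a control range of 747 to 1736. Its log2 difference was 0.34 ± 0.10 (SE; adjusted p = 0.773, edgeR). The other leading genes of this comparison were Hint2, Pbld1 and Dmac2l, with estimates higher at 40 ppm, and Fbxo33, Gm379 and Gm6166, with estimates lower at 40 ppm.

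Enzymes of foreign-compound metabolism were examined as lists. Of the 30 tested CAR and PXR target genes, 0 passed the adjusted test, 8 were higher at an unadjusted p under 0.05 (4.03% of all genes) and 1 was lower (4.09%). The median log2 fold change of the list was 0.23, against 0.00 over all genes, with 0.11 at 20 ppm and 0.32 at 40 ppm. Against control 2 of the genes were higher and 0 lower at 20 ppm, and 9 were higher and 1 lower at 40 ppm, at an unadjusted p under 0.05. Besides Cyp2c29 and Cyp2c50 the 8 higher genes included Cyp2c54, a further P450, with medians of 237, 309 and 418 CPM at 0, 20 and 40 ppm, and a pooled log2 fold change of 0.56 ± 0.19 (SE). Aldh1a7, an aldehyde dehydrogenase, was the lower one, with medians of 55.2, 42.2 and 41.7 CPM. In the direct comparison of the doses 6 of the 30 genes were higher at 40 ppm at an unadjusted p under 0.05 (2.34% of all genes) and 0 lower, with a median log2 difference of 0.16; leaving out 1 dosed mouse gave 3 to 8 higher. The median of the pooled list was 0.39 within block 1, 0.33 within block 3 and -0.05 within block 4, and only 2 of the 30 genes were higher at an unadjusted p under 0.05 when the EPA-isolated mice were left out. It lay between 0.17 and 0.32 when any 1 mouse was left out, with 5 to 8 genes higher.

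Other lists of such enzymes had smaller medians. Of 24 other phase I enzymes, 1 was higher at an unadjusted p under 0.05 (4.03% of all genes) and 0 lower (4.09%), with a median log2 fold change of 0.05. That gene was Cyp1a2, with medians of 56.9, 73 and 108 CPM at 0, 20 and 40 ppm and a pooled log2 fold change of 0.47 ± 0.16 (SE; adjusted p = 0.490, edgeR). Of 37 glutathione S-transferases, UGTs and sulfotransferases, 4 were higher and 2 lower at an unadjusted p under 0.05, with a median of 0.10. Together these were 16.2% of the list, against 8.12% of all genes. Between the doses 4 of the 24 other phase I enzymes were higher at 40 ppm (2.34% of all genes) and 2 lower (3.29%). Of the 37 conjugating enzymes 2 were higher and 0 lower at 40 ppm. Sult1a1, a sulfotransferase of phenols, had medians of 480, 563 and 660 CPM, and Gstk1, the mitochondrial glutathione transferase, had medians of 11.5, 9.98 and 8.83 CPM. Of 23 Nrf2 target genes, which answer oxidative stress, 0 were higher and 2 lower, with a median of -0.03. Between the doses 1 of them was higher and 3 were lower at 40 ppm.

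The esterases and hydrolases that bind or cleave organophosphates had a pooled median near 0. Of 32 tested members, 0 passed the adjusted test, and the median log2 fold change was 0.03. It was -0.05 at 20 ppm and 0.11 at 40 ppm. Within blocks 1, 3 and 4 the pooled median was 0.05, 0.09 and -0.24. At an unadjusted p under 0.05, 1 was higher (4.03% of all genes) and 2 were lower (4.09%). Ces1d, a carboxylesterase, had 11.3, 26.1 and 44.6 CPM in the lowest, median and highest control, 14.6, 49.3 and 57.2 at 20 ppm and 19, 50.1 and 56.5 at 40 ppm. Its pooled log2 fold change was 0.64 ± 0.27 (SE; adjusted p = 0.548, edgeR), and within block 4 it was -0.10. Abhd2, a lipase-like hydrolase, had medians of 57.5, 41.6 and 35.4 CPM, and Pon2, an intracellular paraoxonase, had 9.42, 7.12 and 6.81 CPM; for each gene the groups overlapped. Ces2a had medians of 132 CPM in controls, 133 at 20 ppm and 184 at 40 ppm, and its log2 difference between the doses was 0.36 (unadjusted p = 0.0054, adjusted p = 0.779, edgeR). Ache, the acetylcholinesterase gene and the known target enzyme of paraoxon, was below the count filter. It had 0 to 0.957 CPM in controls, 0.215 to 0.985 at 20 ppm and 0.0795 to 0.770 at 40 ppm, from 0 to 13 counts. In a fit without the filter its pooled log2 fold change was -0.09, with a 95% interval of -0.89 to 0.70.

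The remaining lists showed small pooled medians. Of the 24 pathway lists, which together held 650 tested genes, 18 had a pooled median within 0.1 of 0 on the log2 scale, and the medians ran from -0.20 to 0.23. In the direct comparison of the doses 15 of these lists had a median log2 difference within 0.1 of 0. The 23 cell cycle and DNA replication genes had the lowest median, -0.20, with 2 lower at an unadjusted p under 0.05 (Mcm6 and Top2a; 4.09% of all genes) and 0 higher. Leaving out 1 mouse gave 0 lower (without control replicate 2 or PT 20 ppm replicates 2 or 3) to 6 lower (without control replicate 7). Mcm6, a replication helicase subunit, had medians of 14.8, 12.7 and 8.83 CPM at 0, 20 and 40 ppm. The 10 calpains, calcium-dependent proteases, had a median of -0.19, with 3 lower (Capns1, Capn2 and Capn8; 4.09% of all genes) and 0 higher, but 0 lower without control replicate 5 and 2 to 4 without any other single mouse; Capn2 had medians of 14.8, 7.82 and 8.48 CPM. Within block 1 the calpain median was 0.02, and within blocks 3 and 4 it was -0.26 and -0.28. The 24 cholesterol synthesis genes had a median of -0.18, with 1 lower (Mvk), and the 30 fatty acid and triglyceride synthesis genes had a median of -0.11, with 0 in either direction.

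Lists of hepatocyte function had pooled medians near 0. Counts of members are at an unadjusted p under 0.05, at which 4.03% of all genes were higher and 4.09% lower. The 35 PPAR alpha target genes, which carry out fatty acid oxidation, had a median of 0.04, with 0 higher and 1 lower. Cyp4a10, a marker gene of that receptor, had medians of 1.02, 1.81 and 3.38 CPM at 0, 20 and 40 ppm, and 53.3 to 891 CPM at 80 ppm; its pooled log2 fold change of 1.32 ± 0.71 (SE) had an adjusted p of 0.649 (edgeR). The 57 oxidative phosphorylation subunits had a median of 0.03, with 3 higher and 0 lower, and the 33 cytosolic ribosomal protein genes had a median of 0.07, with 4 higher and 1 lower. In total 5.26% and 15.2% of these lists were under the threshold, against 8.12% of all genes. Without control replicate 4 the higher genes of these lists numbered 9 and 8, and without control replicate 5 they numbered 1 and 1. For the 25 bile acid genes the median was 0.05, with 1 gene in each direction. The 33 genes of gluconeogenesis, urea cycle and amino acid breakdown had a median of -0.07 with 1 lower. The 34 growth hormone axis and sex-biased genes had a median of 0.07 with 1 in each direction, the 16 heme genes -0.01 with 1 lower, and the 35 complement and coagulation genes -0.01 with 1 higher and 2 lower. Between the doses, 3 bile acid genes were higher at 40 ppm (2.34% of all genes) and 0 lower. Their median log2 difference was 0.15, with 0.05, 0.26 and 0.27 within blocks 1, 3 and 4. PPAR alpha targets also had 0.15, with 2 higher and 0 lower, but -0.07 within block 1. The difference was 0.07 for oxidative phosphorylation, 0.06 for ribosomal and 0.06 for gluconeogenesis genes. It was -0.01 for growth hormone, -0.01 for heme and -0.05 for complement genes.

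Stress and regulatory lists also had pooled medians near 0. Counts are again at an unadjusted p under 0.05, at which 4.03% of all genes were higher and 4.09% lower. The 36 unfolded protein and heat shock genes had a median of -0.04 and 3 lower members (Pdia6, Dnajb11 and Pdia3, chaperones of the endoplasmic reticulum). The 22 glucocorticoid and metallothionein genes had a median of -0.06 with 1 lower (Nr3c1, the glucocorticoid receptor), and the 18 p53 target genes -0.01 with 1 higher (Perp). The medians of the clock, p53, heme and complement lists turned sign by limma, which was run without TMM, to -0.06, 0.01, 0.02 and 0.01. Without the EPA-isolated mice those of 7 lists turned: acute phase to 0.13, glucocorticoid to 0.10, unfolded protein to 0.03, complement to 0.04, heme to 0.01, organophosphate hydrolases to -0.05 and oxidative phosphorylation to just below 0. The 17 clock genes had a median of 0.06 with 1 lower (Csnk1d), the 37 interferon-stimulated genes -0.08 with 2 in each direction, and the 14 immediate early genes -0.08 with 0 in either. Median log2 differences between the doses (40 minus 20 ppm) were -0.18 for unfolded protein, -0.15 for p53 and -0.06 for glucocorticoid genes. They were -0.15 for interferon-stimulated, -0.25 for immediate early and -0.002 for clock genes. Single clock genes ran from -0.95 to 1.48 between the doses, with 3 higher (2.34% of all genes) and 1 lower (3.29%) at 40 ppm. Within block 1 the unfolded protein and p53 differences were 0.04 and 0.02.

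**Figure D4:**
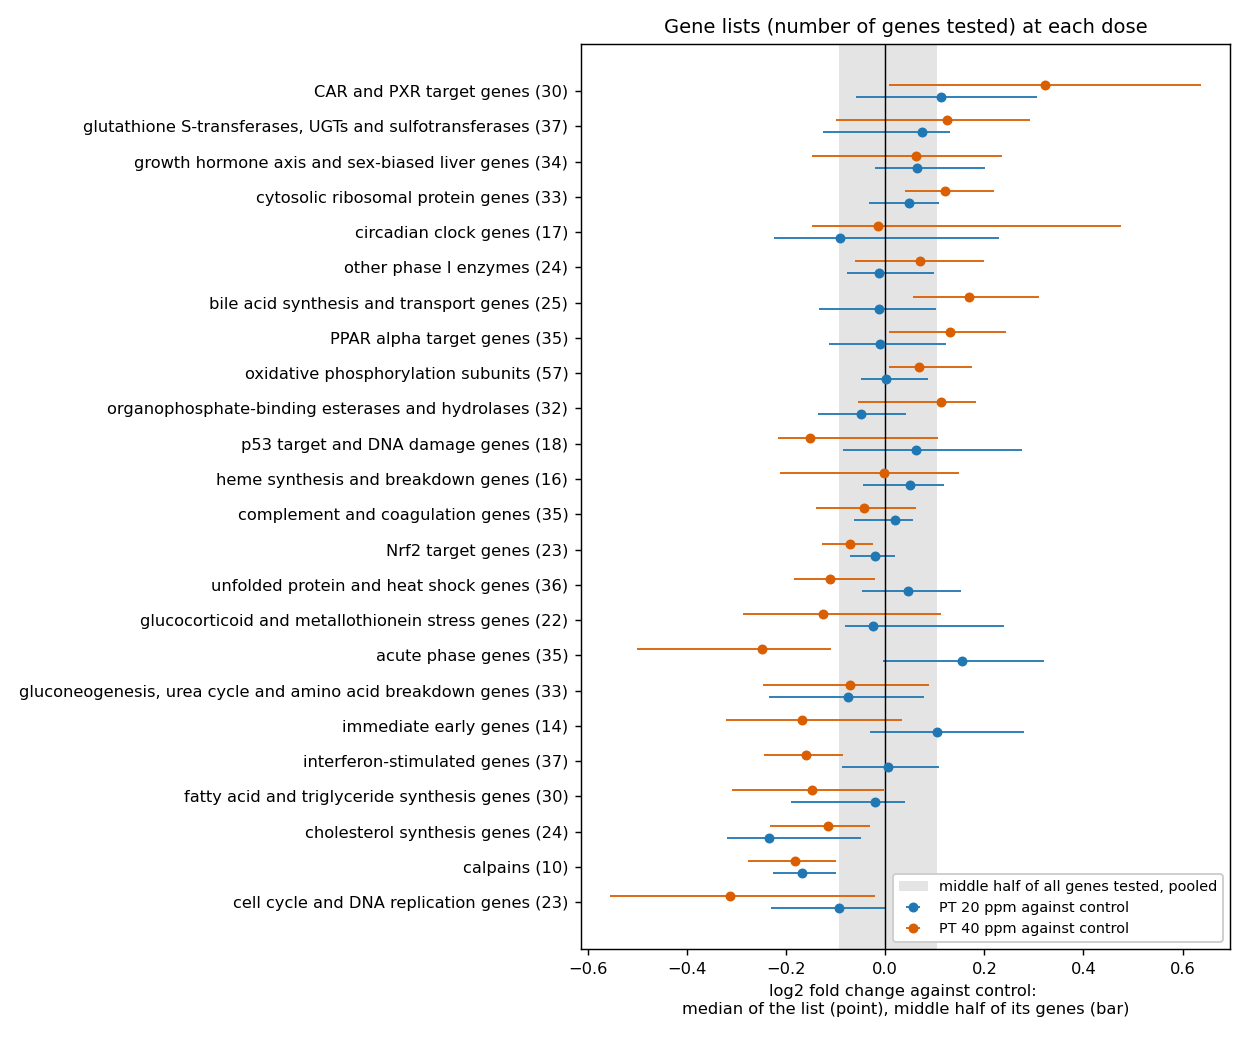
Median log2 fold change against control (points, x axis) and the interquartile range of the genes (bars) of 24 gene lists (y axis, number of tested genes in brackets) at 20 and at 40 ppm; the grey band is the interquartile range of all 10415 genes in the pooled comparison. CAR and PXR targets have medians of 0.11 and 0.32 and acute phase genes 0.15 and -0.25; both doses share the same controls.

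Acute phase genes, which hepatocytes switch on in inflammation, varied widely between mice of one group. Of 35 tested, 0 were higher or lower at an unadjusted p under 0.05 in the pooled comparison, with a median of -0.06. The median against control was 0.15 at 20 ppm and -0.25 at 40 ppm, and in the direct comparison 6 genes were lower at 40 ppm (3.29% of all genes) and 0 higher, with a median of -0.36. That median was -0.42 within block 1, 0.20 within block 3 and -0.90 within block 4, so its sign turned in block 3; leaving out any 1 dosed mouse gave -0.45 to -0.20, with 3 to 20 genes lower, the 20 being without PT 40 ppm replicate 4. Between the same doses the 8 Kupffer cell markers had a median log2 difference of -0.31, from -0.42 to -0.17, with 0 at an unadjusted p under 0.05. The 4 leukocyte markers had a median of -0.49 with 1 lower, and Spp1, a cholangiocyte marker, had -0.54; their part in the result was not tested. Lcn2, the iron-sequestering protein lipocalin 2, shows the spread; it was chosen after its values were seen. Lcn2 had 10.7 CPM in the lowest, 760 in the median and 7567 in the highest control, 8.82, 419 and 4403 at 20 ppm, and 9.87, 30.8 and 6547 at 40 ppm. The 3 groups overlapped almost completely. Its log2 difference between the doses was -1.56 ± 1.43 (SE; unadjusted p = 0.278, edgeR).

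Within block 4 alone, 36 genes differed between 40 and 20 ppm at an adjusted p under 0.05 (edgeR, 2 mice against 2), 26 lower and 10 higher. The spread in this fit was estimated from the block 4 mice of all 12 groups. Of all genes tested 0.25% were lower and 0.096% higher, and of the 35 tested acute phase genes 6 were lower (Cp, Steap4, Apcs, Lcn2, Orm3 and Orm1). The 2 mice at 20 ppm had 1896 and 4403 CPM of Lcn2, and the 2 at 40 ppm had 30.8 and 70.8 CPM. Among the 10 higher genes was Nr1i3, which encodes CAR itself, with 127 and 144 CPM at 20 ppm and 342 and 339 at 40 ppm. Nr1i3 and the 6 acute phase genes were chosen here after their values were seen. The log2 difference of Nr1i3 was 1.33 within block 4, 0.23 within block 1 and 0.17 within block 3. Over all blocks Nr1i3 had a log2 difference of 0.51 (unadjusted p = 0.0280, adjusted p = 0.808, edgeR). The 36 genes had the same sign of difference within block 1 for 31 and within block 3 for 15. The state of single mice or of a shared cage cannot be told apart from the dose with 2 mice per dose in a block.

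**Figure D5:**
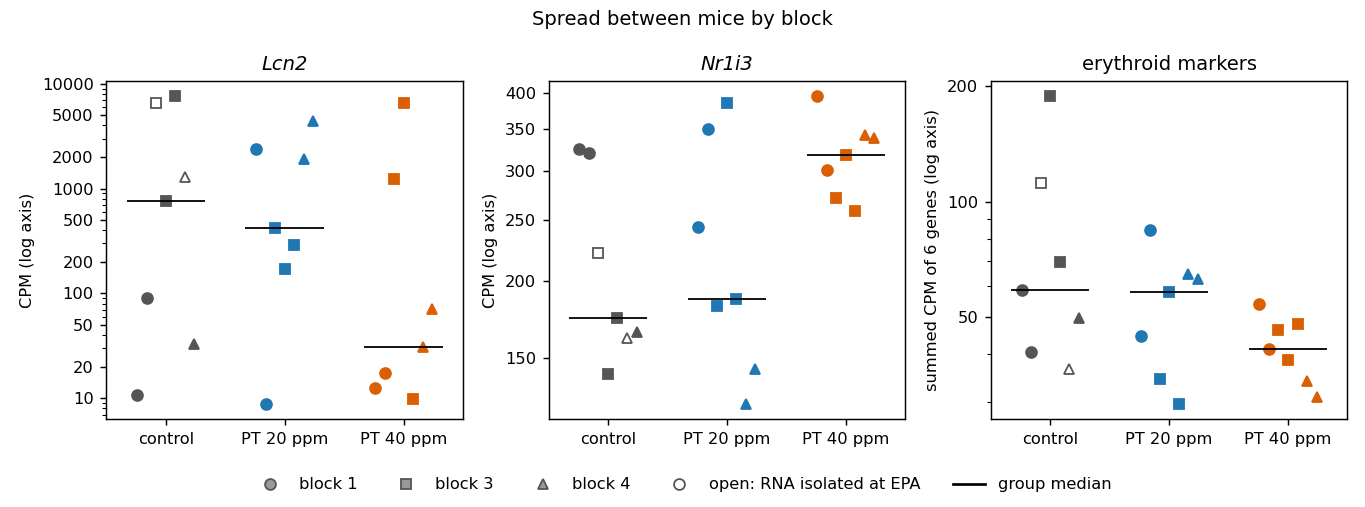
CPM on a log axis of Lcn2 (left) and Nr1i3 (middle), and summed CPM of 6 erythroid markers (right), in each mouse by group; circles, squares and triangles are blocks 1, 3 and 4, open symbols are EPA-isolated controls, and lines are medians. Lcn2 spans 8.82 to 7567 CPM with overlap of all groups, and the highest erythroid sums, 188 and 112 CPM, are 2 controls of block 3.

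Markers of other cells were checked beside these results. All 5 tested erythroid markers, among them Hba-a1, Hba-a2, Hbb-bs and Alas2, were lower in dosed mice at an unadjusted p under 0.05 (4.09% of all genes), with a median log2 fold change of -0.78. In bulk liver, fewer cells of a type and less RNA per cell cannot be told apart. Their summed level ran from 36.6 to 188 CPM in controls, 29.6 to 84.1 at 20 ppm and 30.9 to 54.1 at 40 ppm, and the groups overlapped. Hba-a1, an alpha-globin gene that shares its sequence with Hba-a2, had 11.3, 18.1 and 53.8 CPM in the lowest, median and highest control, 8.61, 16.8 and 28.1 at 20 ppm and 8.99, 13.8 and 17.9 at 40 ppm. The pooled log2 fold change of Hba-a1 was -0.76 ± 0.24 (SE; adjusted p = 0.490, edgeR), but 0.24 within block 1 and 0.04 within block 4. The list's median was 0.24 within block 1, -1.75 within block 3 and -0.06 within block 4, and all 5 genes were under the unadjusted threshold without the EPA-isolated mice. From 2 to 5 of the genes stayed under the unadjusted threshold when any 1 mouse was left out, the 2 being without control replicate 4.

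Other marker lists had medians nearer 0. Kupffer cell markers had a pooled median of -0.12 (8 tested) and stellate cell markers 0.02 (9 tested), with 0 genes in either direction. Endothelial markers had a median of 0.07 (10 tested, 1 higher, against 4.03% of all genes), and the 4 tested leukocyte markers -0.20 with 0 in either direction. At 40 ppm against control, 3 stellate markers were lower at an unadjusted p under 0.05 (4.45% of all genes) and 0 higher, with a median of 0.03. Of the Kupffer markers 1 was lower and 0 higher, with a median of -0.28, and 2 endothelial markers were higher (4.06%). At 20 ppm 0 stellate or Kupffer markers were higher or lower. Between the doses, the 9 stellate markers had a median log2 difference of -0.04, from -1.05 to 0.29. At an unadjusted p under 0.05, 2 were lower (3.29% of all genes) and 0 higher. Of these the collagen gene Col1a1 had medians of 9.87 CPM at 20 ppm and 4.97 at 40 ppm, and a log2 difference of -1.05 (unadjusted p = 0.00231, adjusted p = 0.773, edgeR). Col1a2 had medians of 9.77 and 6.76 CPM and a log2 difference of -0.69. Kupffer marker sums lay between 156 and 348 CPM in controls, 176 and 430 at 20 ppm and 144 and 325 at 40 ppm. For cholangiocytes, adipocytes and pancreas, 1 marker each passed the count filter (Spp1, Fabp4 and Cela1), with log2 fold changes of -0.17, -0.13 and -0.44. The pancreas markers summed to 14.5 CPM in the EPA-isolated control of block 4 and to at most 4.25 CPM in the other 20 mice. The part of these markers in the results on other genes was not tested.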

How the data were processed

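TempO-Seq was done on liver RNA of 84 mice; 14 dosed and 7 control mice are compared here. Per the labels and the study's methods, the authors trimmed reads in Partek Flow, aligned them with STAR to mm39 and estimated expected counts per gene by expectation-maximization with Ensembl transcripts, so the deposited values are estimated counts without scaling (17.9% were not whole). A second deposited table of adjusted log2 values was not used. The table held 17695 genes, 17660 of them named.

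Counts were rounded to whole numbers, and 10415 genes with a median count above 8 over the 84 mice were kept. One edgeR (4.0.16, R 4.3.3) quasi-likelihood model with TMM normalization held 12 groups, block and RNA isolator, so the isolator effect rests on 7 EPA mice. Contrasts were PT 20 and 40 ppm pooled, each dose against control, and 40 against 20 ppm; both doses share the controls. Calls needed a Benjamini-Hochberg adjusted p under 0.05 over all genes. Alternatives were DESeq2 1.42.0, limma 3.58.1 on log2(CPM + 1), other size factors, no filter, fewer mice, no covariates, single blocks and each mouse left out. The CPM given to limma was scaled to total counts without TMM. Total counts were 8621611 to 13460623; intervals cover the spread between mice, and a floor of 3 counts covers counting error only. Scripts were tested on simulated data.

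Members and gene lists were chosen with earlier results of these data known. Named were the 12 genes with the smallest p in each direction of the pooled contrast, 5 in each direction between doses, up to 4 members of each list by smallest p, Ache, and genes past the adjusted threshold and 2-fold at 1 dose. Genes outside that rule are said to be chosen after their values were seen. Gene positions are from GENCODE M39 on GRCm39. Genes that met the rule but are withheld are not reported here by name or value.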

Additional observations from a re-analysis of the deposited data

Results flagged for a closer look

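For 35 genes, the 12 leading genes in each direction of the pooled comparison and others named by the same rule, each group of 7 mice was searched for a highest or lowest mouse set far apart from the rest (Dixon's test, 105 groups). A total of 6 mice were set apart, and chance alone would give about 1 in 20 groups. The lowest control for Cyp2c50 had 13.5 CPM, and the next control had 36.5. The lowest mouse at 40 ppm for Enox2 had 1.99 CPM, with 3.24 in the next. For Clk1 the lowest mouse at 20 ppm had 33.6 CPM and the next 54.3. Ssbp4 had 2.87 CPM in its highest mouse at 40 ppm, against 1.30 in the next. Commd8 had 58 CPM in its highest control, against 38.3. Pbld1 had 90.4 CPM in its lowest mouse at 40 ppm, against 116.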

How the results depend on the processing

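Calls were few under every setting. At 20 ppm the count was 1 (Tifab), 0 by DESeq2, without a filter, with the 21 or with the 28 control and PT mice alone, within block 1 and within block 4, 1 within block 3 (Bpgm, lower, named after its values were seen; Tifab had an adjusted p of 0.591 there), and 2 with EA mice only (Tifab, adjusted p = 0.0105, and Hnrnph1, 0.0347, edgeR). At 40 ppm DESeq2 gave 1 (Cyp2c29) in place of 0. Between the doses block 4 alone gave 36 in place of 0. Leaving out 1 mouse gave 0 to 1 call pooled (Tifab without control replicate 6, adjusted p = 0.0436, edgeR), 0 to 1 at 20 ppm, 0 to 1 at 40 ppm and 0 between the doses. The cause was not tested. At an unadjusted p under 0.05 the pooled count was 846, 1590 without covariates, 1411 of 17683 genes without a filter, 1218 in the 21 mice and 537 within block 1. Of 151 named genes, 30 had the other sign within block 1 and 26 within block 4, and 0 to 6 under each other setting. No paired analysis was possible because the labels give no replicate numbers; block is a covariate instead. Genes near the count filter, such as Tifab, rest on few counts, and with 2 or 3 mice per group a single block bounds little.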

Other observations

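Other genes with an unadjusted p under 0.05 between the doses were members of the lists, chosen here after their values were seen, and none passed the adjusted test. The clock output genes Dbp, Tef and Nr1d1 had log2 differences of 1.48, 1.09 and 1.05 (40 minus 20 ppm), while Npas2, which acts in the opposite phase, had -0.95; they are the 3 higher (2.34% of all genes) and the 1 lower (3.29%) of 17 tested, and the list's median was 0.00. The immediate early genes Myc, Atf3, Jun and Ier5 had log2 differences of -1.83, -1.06, -0.88 and -0.40, and they are the 4 lower of 14 tested (3.29% of all genes), with 0 higher; leaving out 1 dosed mouse gave 2 to 6 lower. Time of sampling was not analysed here.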
